A study of Mus musculus with 2 samples.

Results

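The segments described here are 5 stretches of the mouse autosomes at which the array comparative genomic hybridization (CGH) of 2 haploid cell lines against their common parent went in opposite directions, lower than the parent in H19Δ1 and higher than the parent in H19Δ2. They lie on chromosomes 2, 4, 5, 6 and 17. They were chosen on the log2 ratios measured in both lines, so their levels are given as a description and carry no test. Their members are the probes on both arrays whose positions fall within the borders of a segment. There were 543 such probes among the 170210 probes measured on both arrays, and the 5 stretches stand beside 230 pieces into which segmentation divided the autosomes over both lines together. All 543 members passed the spot filter. The segments spanned 7.41 Mb in all.

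Both lines are androgenetic haploid embryonic stem cells (AG-haESCs), derived from AGH-OG-3, a wild-type line of haploid karyotype that carries an eGFP transgene under the *Oct4* promoter. H19Δ1 and H19Δ2 each carry a CRISPR-Cas9 deletion of *H19* together with its imprinting control region. Each is a single picked clone that was passaged and sorted repeatedly for haploid cells. All cells grew with leukemia inhibitory factor and the inhibitors CHIR99021 and PD0325901, and feeder cells were depleted by letting them settle before DNA was taken. DNA of the H19Δ line was labelled with Cy5 and DNA of AGH-OG-3 with Cy3, on 1 array per line, and the dyes were not swapped. The label of haploid was not checked here, since CGH compares copies along the genome and does not count chromosome sets. The deleted locus was not used as a check of the labels either, since no probe was placed on a gene.

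AG-haESCs come from embryos whose only genome is that of the sperm, and they can stand in for sperm when injected into oocytes. A haploid cell has a single copy of each autosomal locus, so a duplication there doubles the local dose and a deletion leaves none. Embryonic stem cells are known to acquire copy number changes in culture, and a clone picked from a culture carries the genome of its founding cell, while the culture itself can hold several genomes. On a CGH array the ratio of both dyes at a probe follows the ratio of copies in both DNA samples, and a reference DNA from a mixture of cells reads as the average of their copies.

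The log2 ratio of a probe was log2(Cy5/Cy3), centred on the median of the autosomal probes, so that 0 is the level of a typical autosomal probe. Of the 543 members, 501 were at or below -0.2 in H19Δ1, where 5.56% of 161370 autosomal probes were. In H19Δ2, 534 members were at or above 0.2, against 7.11% of the same probes. Both limits were passed by 493 members, against 0.454% of the autosomal probes, and the members made up 67.3% of the autosomal probes that passed both. These counts follow from the way the segments were chosen. The ratio was of opposite sign in both lines at 540 members, and all 543 were higher in H19Δ2 than in H19Δ1.

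**Figure D1:**
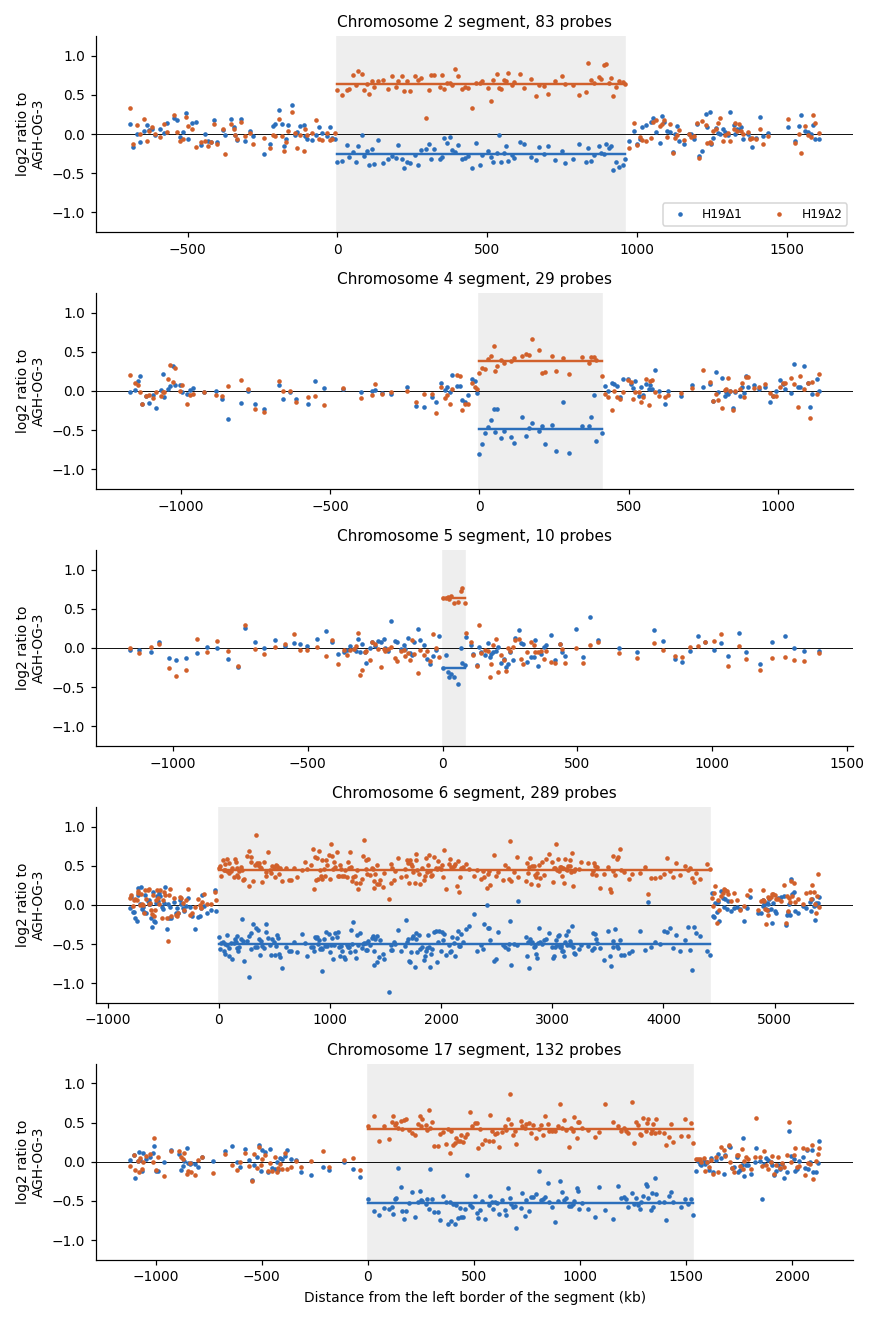
Log2 ratio to AGH-OG-3 (vertical axis) of each probe in H19Δ1 and H19Δ2, against the distance in kb from the left border of the segment, with 60 probes on each side. Grey marks the segment and lines mark its mean, which lies from -0.52 to -0.26 for H19Δ1 and from 0.38 to 0.64 for H19Δ2, while the probes outside scatter around 0.

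The segment on chromosome 2, chr2:112290454-113249742 (mm9, 83 probes, 959 kb), stood at -0.26 ± 0.11 in H19Δ1 and at 0.64 ± 0.11 in H19Δ2 (mean log2 ratio ± SD over probes). In H19Δ1 its probes ran from -0.45 to -0.01 with a median of -0.27, and in H19Δ2 from 0.20 to 0.91 with a median of 0.65. No probe of the segment was above 0 in H19Δ1 or below 0 in H19Δ2. The 100 probes on either side averaged 0.02 and 0.01 in H19Δ1 and 0.00 and 0.01 in H19Δ2. Single probes of the flanks reached -0.41 in H19Δ1, so only 4 of the 83 members lay below every flanking probe there, whereas 81 lay above every flanking probe in H19Δ2. The lowering in H19Δ1 therefore shows in the mean of many probes more than in single ones.

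The segment on chromosome 4, chr4:82064724-82474141 (29 probes, 409 kb), stood at -0.49 ± 0.19 in H19Δ1 and at 0.38 ± 0.11 in H19Δ2. Its probes ran from -0.80 to -0.05 in H19Δ1 (median -0.51) and from 0.20 to 0.66 in H19Δ2 (median 0.40). The flanks averaged -0.03 and 0.02 in H19Δ1 and -0.03 and 0.01 in H19Δ2. In H19Δ1, 23 of the 29 probes were below every flanking probe, and in H19Δ2, 19 were above every one.

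The segment on chromosome 5, chr5:81801562-81883668, was the shortest, with 10 probes in 82.1 kb. It stood at -0.26 ± 0.14 in H19Δ1 and at 0.64 ± 0.06 in H19Δ2. Its probes ran from -0.46 to 0.00 in H19Δ1 (median -0.28) and from 0.57 to 0.76 in H19Δ2 (median 0.63). All 10 were above every flanking probe in H19Δ2, but in H19Δ1 only 5 were below every one. The flanks of this segment were not at 0 in H19Δ2, where they averaged -0.06 and -0.07, against 0.01 and -0.02 in H19Δ1.

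The segment on chromosome 6, chr6:55782881-60204117 (289 probes, 4421 kb), held most of the members. It stood at -0.50 ± 0.14 in H19Δ1 and at 0.45 ± 0.13 in H19Δ2. Its probes ran from -1.11 to 0.04 in H19Δ1 (median -0.51) and from 0.07 to 0.89 in H19Δ2 (median 0.45). In H19Δ1, 210 of the 289 were below every flanking probe, and in H19Δ2, 186 were above every one. The flanks averaged -0.02 on either side in H19Δ1. In H19Δ2 they averaged 0.04 and 0.07, and segmentation placed pieces at 0.10, at 0.05 and, after the segment, at 0.07 around it, so the rise in H19Δ2 started from a raised floor on this chromosome.

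The segment on chromosome 17, chr17:65493402-67027256 (132 probes, 1534 kb), stood at -0.52 ± 0.14 in H19Δ1 and at 0.42 ± 0.13 in H19Δ2. Its probes ran from -0.84 to -0.08 in H19Δ1 (median -0.52) and from 0.12 to 0.87 in H19Δ2 (median 0.41). The flanks averaged 0.00 and -0.03 in H19Δ1 and -0.02 and 0.02 in H19Δ2. In H19Δ1, 88 of the 132 were below every flanking probe. In H19Δ2 only 12 were above every one, the highest flanking probe there being at 0.57.

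With 1 array per line there is no spread between replicates. In its place, the error of a mean was taken as the spread of the means of consecutive autosomal windows of as many probes outside the segments on the same array, called the window SD. In H19Δ1 it was 0.02, 0.03, 0.04, 0.01 and 0.02 for the segments of chromosomes 2, 4, 5, 6 and 17. In H19Δ2 it was 0.02, 0.03, 0.05, 0.02 and 0.02 in the same order. Every level was several times its window SD. The smallest such margin was that of chromosome 5 in H19Δ1, where the mean of -0.26 was set against 0.04.

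The levels of the segments fell into 2 sets, a grouping made after the values were seen. On chromosomes 2 and 5, H19Δ1 was little lowered and H19Δ2 strongly raised, and both lines had the same mean on both chromosomes to 2 decimals. On chromosomes 4, 6 and 17, the lowering in H19Δ1 was larger than the rise in H19Δ2, with means of -0.49, -0.50 and -0.52 in H19Δ1 and of 0.38, 0.45 and 0.42 in H19Δ2. As folds of AGH-OG-3, the mean log2 ratios of H19Δ1 came to 0.837 and 0.835 in the set of chromosomes 2 and 5, and to 0.712, 0.706 and 0.696 in the set of chromosomes 4, 6 and 17. Those of H19Δ2 came to 1.56 at both segments of the former set and to 1.30, 1.36 and 1.33 in the latter.

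**Figure D2:**
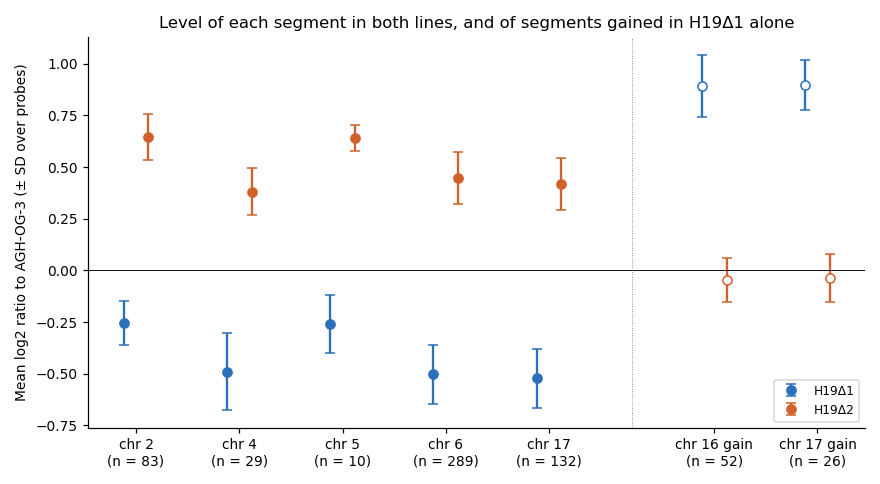
Mean log2 ratio to AGH-OG-3 of each segment in both lines, with bars for the SD over probes. Filled points are the 5 segments, where H19Δ1 lies below 0 and H19Δ2 above it, and open points are 2 segments gained in H19Δ1 alone, at 0.89 and 0.90 with H19Δ2 at -0.05 and -0.04.

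The difference between the lines does not contain the reference, because AGH-OG-3 was on both arrays, and it varied far less than the levels did. H19Δ2 minus H19Δ1 was 0.90 at the segments of both chromosome 2 (window SD 0.02) and chromosome 5 (window SD 0.05). It was 0.87 for chromosome 4 (window SD 0.03), 0.95 for chromosome 6 (window SD 0.01) and 0.94 for chromosome 17 (window SD 0.02). Its mean over the 5 segments was 0.91 ± 0.03 (SD over segments). As a fold, H19Δ2 had 1.87, 1.83, 1.87, 1.93 and 1.92 times the DNA of H19Δ1 at these segments, in the order of the chromosomes. The levels of each line therefore followed the 2 sets of segments, while the distance between the lines did not. Among the members, 538 had a difference above that of every flanking probe of their segment.

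Segments gained in 1 line only gave steps to set beside this. Of the autosomal segments of at least 20 probes, 2 had a mean of 0.5 or more in H19Δ1 and lay within 0.2 of 0 in H19Δ2. These were 52 probes at chr16:59445252-59999697, with 0.89 ± 0.15 in H19Δ1 and -0.05 ± 0.11 in H19Δ2, and 26 probes at chr17:71112826-71404932, with 0.90 ± 0.12 and -0.04 ± 0.12. The size of the difference between the lines was 0.94 at each, so it lay within the range of 0.87 to 0.95 of the 5 segments. The reverse comparison, added after the values were seen, gave smaller steps. Here 5 segments of at least 20 probes had a mean of 0.5 or more in H19Δ2 alone. Of these, 1 lay on chromosome 6 (chr6:3131098-3571947) and the others adjoined on proximal chromosome 12, which the paper lists as 1 region. H19Δ2 minus H19Δ1 ran from 0.55 to 0.69 over them, with 0.69 at chr12:4648434-6104440 only and 0.55 to 0.56 at the rest. A gain in 1 line thus did not always come with the same step.

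The raw brightness of both dyes was compared next, as a ratio alone does not tell which DNA departs from the rest of the chromosome. The median log2 processed signal of the members was set against that of the 100 probes on each side. AGH-OG-3 was brighter inside than outside at all 5 segments on both arrays. On the H19Δ1 array its Cy3 signal was higher by 0.42, 0.56, 0.35, 0.50 and 0.34 at the segments of chromosomes 2, 4, 5, 6 and 17. On the H19Δ2 array it was higher by 0.44, 0.53, 0.31, 0.46 and 0.37. Both arrays hold the same probes and the same reference line, so their likeness shows repeatability of the hybridization only.

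The Cy5 signal of H19Δ1 lay near that of the flanks, with 0.17, 0.15, 0.12, 0.01 and -0.13 on chromosomes 2, 4, 5, 6 and 17. The Cy5 signal of H19Δ2 was far above it, with 1.11, 1.03, 1.00, 0.85 and 0.78. AGH-OG-3 lay between both lines in brightness at every segment. This order follows from the ratios on which the segments were chosen and is no added finding. Probes also differ in brightness by their sequence, and the SD of the same measure over autosomal windows was 0.19 to 0.20 for chromosome 2, 0.28 for chromosome 4, 0.41 for chromosome 5, 0.14 to 0.15 for chromosome 6 and 0.17 for chromosome 17. The values of H19Δ1 were all within that spread of 0. Those of AGH-OG-3 exceeded it at 4 segments but not on chromosome 5, and those of H19Δ2 exceeded it everywhere. At the segments gained in H19Δ1 alone, Cy3 of AGH-OG-3 was at the level of the flanks, with values from 0.00 to 0.06 over both arrays, and Cy5 of H19Δ1 was raised by 0.87 and 0.86.

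**Figure D3:**
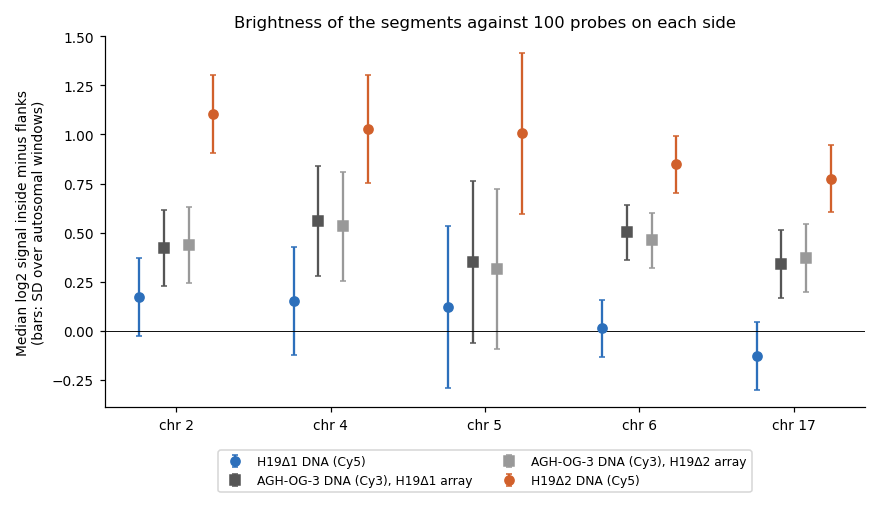
Median log2 signal of each segment minus that of 100 probes on each side, for both dyes on both arrays, with bars for the SD over autosomal windows of as many probes. At each segment Cy5 of H19Δ1 is lowest, Cy3 of AGH-OG-3 lies in between and Cy5 of H19Δ2 is highest, an order that follows from the choice of the segments.

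The place of AGH-OG-3 between the lines was put as a percentage of the step from H19Δ1 to H19Δ2 on the linear scale. It was 22.4% ± 1.45 on chromosome 2 and 22.8% ± 3.07 on chromosome 5 (± the error carried over from the window SDs). It was 48.9% ± 2.70 on chromosome 4, 44.7% ± 1.30 on chromosome 6 and 47.6% ± 1.66 on chromosome 17. The error treats both arrays as independent, although they share probes and the reference. It may therefore be too small, and the multiples of it given below too large. Chromosomes 2 and 5 differed by 0.44 percentage points, less than the error of that difference (3.39). Against chromosome 4 the place was different by -4.18 points on chromosome 6 and by -1.24 points on chromosome 17, and chromosome 17 was 2.94 points above chromosome 6, all at most 1.40 times the error. Between the 2 sets the distances were 21.8 to 26.5 points, at least 6.36 times the error. No p-value is attached to these distances, since the segments were chosen on the same ratios. The 2 sets were also formed after these levels were seen, so distances that are small within a set and large between sets are no separate support for the grouping.

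Centred on the flanks in place of the autosomal median, AGH-OG-3 stood at 23.0%, 48.3%, 20.6%, 48.4% and 46.5% on chromosomes 2, 4, 5, 6 and 17. The value on chromosome 6, with its raised floor in H19Δ2, thereby moved by more than its error, towards the other 2 of its set. The value on chromosome 5 was the least certain: without its 3 outermost probes at each end it rose to 30.8%, from the 4 probes that were left.

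**Figure D4:**
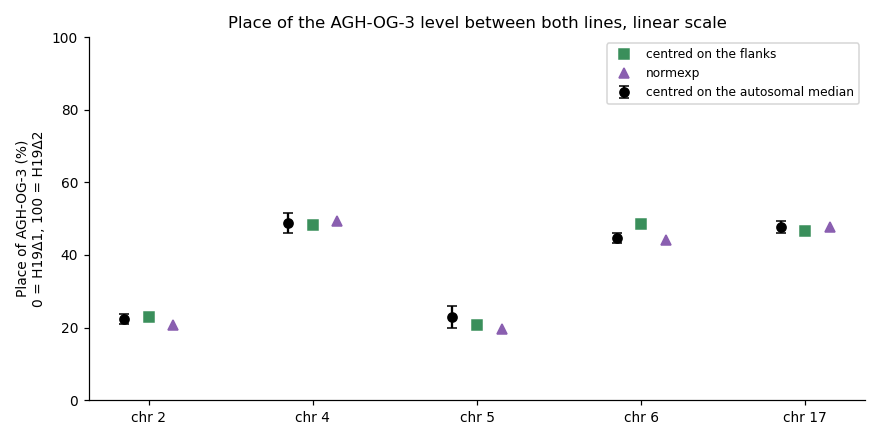
Place of the AGH-OG-3 level between H19Δ1 (0%) and H19Δ2 (100%) at each segment, with the error carried over from the window SDs on the values centred on the autosomal median. Chromosomes 2 and 5 lie near 20% and chromosomes 4, 6 and 17 between 40% and 50% under all 3 settings shown.

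As arithmetic, a reference of uniform haploid cells with 1 copy would give 0 in a line with 1 copy and 1 in a line with 2 copies, and one with 2 copies would give -1 and 0. Neither pair was seen at any of the 5 segments, where both lines departed from 0 in opposite directions. That absence follows from the choice of the segments, which asked for opposite directions, and is no finding about AGH-OG-3. If H19Δ1 has 1 copy and H19Δ2 has 2 at such a segment, the place above is the share of AGH-OG-3 genomes with 2 copies. Those copies would put the lines 1 apart, and the measured differences were 0.87 to 0.95 with window SDs of 0.01 to 0.05. With another background correction (normexp, offset 50) they were 0.95 to 1.00, so the size of the shortfall depended on the processing. The errors of the place do not cover this shortfall, and its cause was not tested. Reading the place as a share also assumes that AGH-OG-3 holds cells like each line and cells of no other kind, which was not tested. The ratios alone do not settle it on chromosomes 4, 6 and 17: 3 copies in AGH-OG-3, 2 in H19Δ1 and 4 in H19Δ2 would give -0.58 and 0.42, to be set beside the measured -0.49 to -0.52 and 0.38 to 0.45. With 1 copy in the flanks, 2 copies in H19Δ1 would raise its Cy5 signal inside by 1. The measured values were 0.15, 0.01 and -0.13 on these chromosomes, with SDs over autosomal windows of 0.28, 0.15 and 0.17. Only this channel was set beside that state, and brightness also depends on probe sequence. The copies in the flanks were not checked, and which state holds was not tested. None of the 3 whole-copy states worked out here was near the -0.26 and 0.64 of chromosomes 2 and 5, and other states were not worked out. The equal places within a set do not show that the same cells carry the segments of a set, because DNA from all cells was hybridized together.

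Within the segments the level was even over most of their length. Each segment was divided into 3 parts of as many probes as its size allowed. On chromosome 2 these parts stood at -0.27, -0.24 and -0.26 in H19Δ1 and at 0.63, 0.65 and 0.66 in H19Δ2. On chromosome 6 they stood at -0.51, -0.50 and -0.49 and at 0.47, 0.42 and 0.45, and on chromosome 17 at -0.55, -0.52 and -0.50 and at 0.40, 0.42 and 0.42. On chromosome 4 they stood at -0.49, -0.51 and -0.46 in H19Δ1 and at 0.36, 0.43 and 0.35 in H19Δ2. The parts of chromosome 5 in H19Δ1 were the least even, at -0.26, -0.39 and -0.14 with a window SD of 0.06 for as many probes. Its parts in H19Δ2 stood at 0.63, 0.61 and 0.69. The parts of chromosome 17 in H19Δ1 and of chromosome 6 in H19Δ2 each spanned 0.05, with a window SD of 0.02.

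The scatter of probes inside a segment was mostly that of its flanks. The SD inside was 0.86 to 1.16 times that of the flanks on chromosomes 2, 5, 6 and 17 in H19Δ1, and 0.89 to 1.04 times on chromosomes 2, 4, 6 and 17 in H19Δ2. In H19Δ1 the probes on chromosome 4 scattered 1.58 times as much as their flanks, and in H19Δ2 those on chromosome 5 scattered 0.49 times as much. Across the members of a segment, the log2 ratios of both lines had a Pearson's r of 0.22 to 0.55, as against 0.37 to 0.46 across the flanking probes. These are correlations across probes that share the Cy3 reference and their sequence, and probes are not replicates. The difference between the lines was smaller in the dimmer part of the probes than in the brighter part at 4 of the 5 segments, with 0.86 and 0.94 on chromosome 2, 0.83 and 0.91 on chromosome 4, 0.94 and 0.97 on chromosome 6 and 0.92 and 0.96 on chromosome 17. On chromosome 5 it was 0.91 and 0.89. The gaps on chromosomes 2 and 4 were about as wide as the range of the difference over the 5 segments.

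The long segments were followed in 10 steps. On chromosome 6 the steps stood from -0.54 to -0.43 in H19Δ1 and from 0.41 to 0.49 in H19Δ2, and the difference between the lines ran from 0.84 to 0.99. The lowest difference belonged to chr6:57944041-58557059. On chromosome 17 the difference ran from 0.87 to 1.01, although the third step, chr17:65834674-65940659, was low in both lines, at -0.64 and 0.29. No segmentation break fell inside the segments on chromosomes 2, 4, 6 and 17 in either line.

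A few members stood apart from their segment. The difference between the lines was under 0.5 at 6 of the 543. On chromosome 6 these were the probes starting at 58082786 (0.48), 58191825 (0.23), 58475859 (0.31) and 59641089 (0.09). The first 3 of them lie in the step with the lowest difference and are interspersed with probes at the level of the segment. In H19Δ1 the probes at 58191825, 58475859 and 59641089 stood at 0.00, 0.04 and 0.04, and in H19Δ2 at 0.22, 0.36 and 0.13. The others were at 112584374 on chromosome 2, with -0.19 in H19Δ1 and 0.20 in H19Δ2, and at 82449007 on chromosome 4. The lowest ratio of any member in H19Δ1, -1.11 at 57317280 on chromosome 6, came with the lowest of any member in H19Δ2, 0.07, so that both lines were low there. The highest in H19Δ2, 0.91, was at 113126589 on chromosome 2.

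The array carries 3 of the members on several spots, which shows how far a single probe repeats. At 82449007 on chromosome 4 the ratio was -0.05 ± 0.06 in H19Δ1 (SD over 4 spots) and 0.44 ± 0.04 in H19Δ2 (4 spots). This probe was therefore off its segment in H19Δ1 on every spot, and on it in H19Δ2. At 112559847 on chromosome 2 it was -0.39 ± 0.05 and 0.69 ± 0.10 (5 spots each). At 58271996 on chromosome 6 it was -0.69 ± 0.08 (4 spots) and 0.36 ± 0.05 (5 spots). The SD over spots of 1 probe was thus between 0.04 and 0.10, below most of the SDs over the probes of a segment.

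The borders were examined last, with 2 methods on each array separately. Segmentation of H19Δ2 placed all 10 borders between the same neighbouring probes as the segments described here, and that of H19Δ1 placed 8 of the 10 there. The segment borders were themselves taken from these ratios, so a border met in 1 line is no independent finding. For H19Δ2 the paper lists the segments of chromosomes 2 and 5 with these same borders, and for H19Δ1 it lists none of the segments. A local fit of 2 levels to 20 probes on each side met all 10 in H19Δ2 and 9 in H19Δ1, and it allowed no other place at 7 and 6 borders. Segmentation of the difference between the lines met all 10.

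The exception was chromosome 5 in H19Δ1. Segmentation found only 5 of the 10 probes there, chr5:81820507-81860162, at a mean of -0.37. The local fit put the right border 3 probes further in, between 81860162 and 81868440, but allowed the border of H19Δ2 as well. The 3 probes in between included that at 81868440, at 0.00 in H19Δ1 and 0.72 in H19Δ2. At the right border itself, the last member stood at -0.22 in H19Δ1 and 0.57 in H19Δ2, and the next probe outside at 0.13 and 0.19.

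The other borders showed a step in both lines from one probe to the next. On chromosome 2 the first member stood at -0.36 in H19Δ1 and 0.57 in H19Δ2, and the probe before it at -0.07 and 0.02. The last member stood at -0.32 and 0.64, and the probe after it at -0.09 and -0.18. On chromosome 4 the first member stood at -0.80 and 0.23 after -0.03 and 0.02, and the last at -0.54 and 0.20 before 0.07 and -0.04. By the best fit both lines changed there between the same neighbours. In H19Δ2 the local fit also allowed each border of this segment 1 probe further in. The members at the ends of the segment were less raised in H19Δ2 than its mean of 0.38.

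On chromosome 6 the first member stood at -0.41 in H19Δ1 and 0.47 in H19Δ2 after -0.08 and 0.07, and the last at -0.63 and 0.46 before 0.15 and 0.09. On chromosome 17 the first member stood at -0.48 and 0.46 after -0.19 and -0.10, and the last at -0.68 and 0.24 before -0.11 and 0.03. On chromosome 5 the first member stood at -0.25 in H19Δ1 and 0.63 in H19Δ2 after 0.15 and -0.11.

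**Figure D5:**
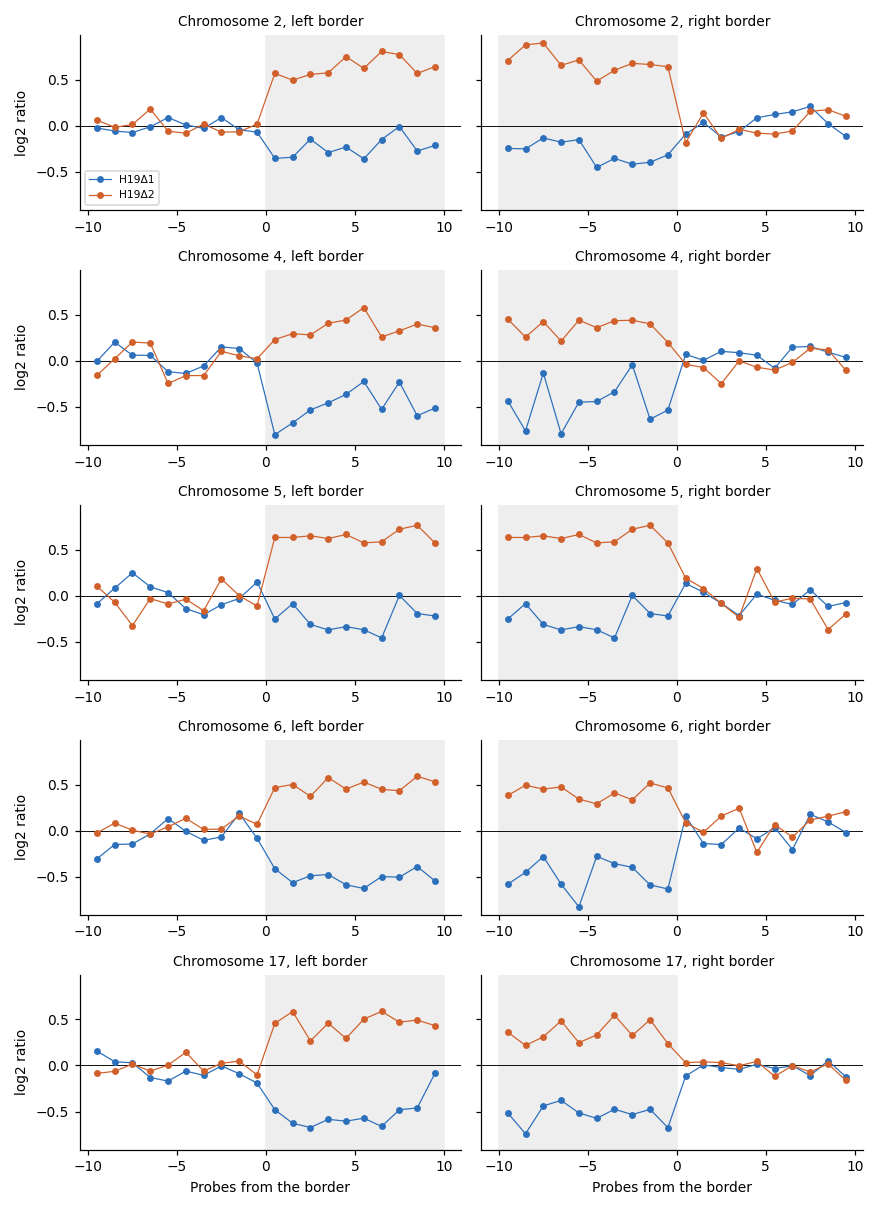
Log2 ratio of the 10 probes on each side of every border in H19Δ1 and H19Δ2, numbered from the border, with the segment in grey. The best place of the local fit lies between the same neighbouring probes in both lines at 9 of the 10 borders. The exception is the right border on chromosome 5 in H19Δ1. The fit allowed no other place at 6 borders in H19Δ1 and at 7 in H19Δ2.

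The probes set the resolution of the borders. The gap without a probe at the left border was 7391 bp for chromosome 2, 6995 bp for chromosome 4, 13744 bp for chromosome 5, 21729 bp for chromosome 6 and 37735 bp for chromosome 17. At the right border it was 13300, 11232, 6146, 15536 and 10908 bp in the same order. Breakpoints of both lines that lie in the same gap could not be told apart, and where the local fit allowed another place they could differ by whole probes. With every break in the gap of its border, the lengths of the segments would lie between 959 and 980 kb, 409 and 428 kb, 82.1 and 102.0 kb, 4421 and 4458 kb, and 1534 and 1582 kb. For chromosome 5 in H19Δ1 the shorter run found by segmentation lies below that range. The median distance between the starts of neighbouring members ran from 8337 bp on chromosome 5 to 12118.5 bp on chromosome 6, against 10844 bp over the autosomes. The widest such distance was 71203 bp, across chr6:58475908-58547062, where a change inside the segment would go unseen. Genes held or interrupted by the segments were not analysed here, as the probe columns hold positions on mm9 and no gene names, and the gene table at hand lies on another build (GRCm38).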

How the data were processed

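Genomic DNA of H19Δ1 and H19Δ2 and of AGH-OG-3 was hybridized together, 1 SurePrint G3 Mouse CGH array per line, both arrays on one slide and in one scan. The authors deposited scanner output of Feature Extraction 11.5.1.1 per the file headers, while the submitters' processing notes name version 10.10. In the deposited processed intensities the background and its trend over the slide had been removed and the dyes balanced by a linear factor. The deposited log10 ratios of Cy5 over Cy3, and the series values equal to them, served only as alternatives. Positions were on mm9.

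The log2 ratio of Cy5 over Cy3 came from these intensities. Neither loess nor quantile normalization was applied, as both can take away real copy number shifts. Outlier spots were left out (151 of 174305 spots in H19Δ1, 211 in H19Δ2), repeated spots were averaged into their probe, and the autosomal median of each array (0.011 and 0.008) was subtracted. Of the 555 spots of the members, 2 and 1 were outliers. Single probes had a noise of 0.12 on each array, estimated from neighbours. The number of arrays limits the precision, and with 1 array per line no test was made. The window SD is the robust SD, from the median absolute deviation, of the means of consecutive windows. Segmentation used penalised least squares with at least 3 probes a segment and, per break, a penalty of 2 noise variances multiplied by the natural logarithm of the probes on the chromosome. It was tested on simulated data. The local fit allowed border places whose residual sum of squares was within 4 noise variances of the best.

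The members, lists and settings were chosen with earlier results of these data known. Genes were to be named only from an annotation keyed by probe or on mm9, so none was placed on a probe. Alternatives tried were the deposited and series ratios, normexp (offset 50), other centrings, spot filters, summaries, flanks and segmentation settings. Tools were limma 3.58.1 in R 4.3.3 for normexp, and matplotlib 3.10.9, numba 0.67.0, numpy 2.4.6, scipy 1.17.1 and pandas 2.3.3 in Python 3.11.15.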

Additional observations from a re-analysis of the deposited data

Results flagged for a closer look

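The 5 segments stood out because the lines departed from AGH-OG-3 in opposite directions. On the log2 scale, H19Δ2 minus H19Δ1 was 0.90 for the segments of chromosomes 2 and 5, 0.87 for that of chromosome 4, 0.95 for that of chromosome 6 and 0.94 for that of chromosome 17. With 1 array per line the difference was not tested.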

How the results depend on the processing

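Of 358 alternative values for 54 results, 44 moved by more than their spread. With normexp, 23 of 54 values moved. The deposited ratios, the series values and the ratios without centring gave the same values to 2 decimals, and none of these moved. The total of 358 therefore counts what is nearly 1 alternative repeatedly. No level, difference or place changed sign, and the number of borders met stayed within 1.5 times the reported number. The cause of the moves was not tested. With normexp the levels went to 0.70 on chromosome 2 and 0.72 on chromosome 5 in H19Δ2, to -0.54 on chromosome 4 and -0.55 on chromosome 17 in H19Δ1, and to -0.53 in H19Δ1 and 0.47 in H19Δ2 on chromosome 6. The differences went to 0.95 on chromosomes 2 and 4, 0.97 on chromosome 5, 1.00 on chromosome 6 and 0.98 on chromosome 17, and the place of AGH-OG-3 to 20.7% on chromosome 2 and 19.6% on chromosome 5. The SD over probes on chromosomes 2, 4, 5, 6 and 17 went to 0.134, 0.251, 0.228, 0.197 and 0.185 in H19Δ1. In H19Δ2 it went to 0.171, 0.186, 0.147, 0.171 and 0.167 in the same order. The borders met went to 7 in H19Δ1 and 8 in H19Δ2, by segmentation and by the local fit alike. Centred on the flanks, levels went to 0.69 on chromosome 5 in H19Δ2, -0.48 and 0.38 on chromosome 6, and -0.50 on chromosome 17 in H19Δ1, with a difference of 0.87 and a place of 48.4% on chromosome 6. With each spot on its own, chromosome 4 went to -0.45 in H19Δ1 and to a difference of 0.83, as the probe with 4 spots weighs more. With medians over probes the differences were 0.95 on chromosome 5 and 0.97 on chromosome 6. Without the outermost probes, chromosome 5 went to -0.39 in H19Δ1, a difference of 1.00 and a place of 30.8%. On the upper part of the array the place on chromosome 5 was 26.0% and the difference on chromosome 17 was 0.96. On the lower part, chromosome 4 was at -0.45 in H19Δ1 with a place of 45.8%, and the difference on chromosome 17 was 0.91. With 200 flanking probes per side, brightness on chromosome 6 went to 0.18 for Cy5 of H19Δ1, 0.62 for Cy3 on the H19Δ2 array and 1.01 for Cy5 of H19Δ2. Cy5 brightness of H19Δ1, within its spread of 0, changed sign on chromosome 4 with 50 flanking probes (-0.08) and on chromosome 6 with normexp (-0.02). No paired analysis was possible because a line was measured on 1 array only. By the scanner's flag, 1 of 555 member spots in H19Δ1 and 0 in H19Δ2 were not well above background. The flag does not tell whether the treatment of background affects the ratios, and the differences at all segments moved with normexp.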
